A study of Homo sapiens with 6 samples.

Results

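The genes described here are 10 that encode adaptors and adaptor-like regulators of T-cell receptor (TCR) signalling: LAT, LCP2, GRAP2, GRB2, VAV1, FYB1, SKAP1, SIT1, UBASH3A and SH2D2A. They were chosen by name and found by Ensembl identifier among the 58096 genes counted. They and the gene lists set beside them were chosen with earlier results of these data known. The counts of genes that changed are therefore a description. The RNA was that of ALL-SIL cells, an established line of T-cell acute lymphoblastic leukaemia with NUP214-ABL1 and TLX1 lesions, in 2 groups of 3 libraries. The JQ1 group had been treated with JQ1, an inhibitor that displaces BET bromodomain proteins from chromatin, at 1 µM for 24 h, and the DMSO group is named for the solvent. Both groups are the same unmodified line in medium with 20% serum. The protocol text of the DMSO libraries repeats the JQ1 treatment, so groups were taken from sample titles. The data describe 1 cell line, and nothing in the labels says whether replicates were separate cultures, so each p-value is set against library-to-library spread that could be technical only.

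Engagement of the TCR activates the kinases LCK and ZAP70, and ZAP70 phosphorylates the membrane scaffold LAT and the cytosolic adaptor SLP-76, the product of LCP2. GADS, the product of GRAP2, joins these proteins into a signalling complex, which collects VAV1, GRB2, phospholipase C-gamma and, through the FYB1 product ADAP, a branch that activates integrins. Other adaptor-like proteins, such as SIT and UBASH3A, restrain the signal. In developing thymocytes the same machinery reads the pre-TCR and the mature TCR.

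Gene counts per library ran from 15925885 to 25293884, the shallowest being JQ1 replicate 3. Levels are in CPM, which are counts scaled to a fixed TMM-normalised library size, with group means ± SD (n = 3 each). A change is the edgeR estimate of log2 JQ1 over DMSO, given ± its standard error (SE). The line, labelled as T-cell leukaemia, carried T-lineage genes, though not all of those listed. CD3D averaged 273 ± 33.0 CPM in JQ1 libraries and 391 ± 33.0 CPM in DMSO libraries, whereas CD2 had at most 3 reads in a JQ1 library and 49 in a DMSO library. The pre-TCR gene PTCRA had 2, 2 and 0 reads in JQ1 replicates 1, 2 and 3, and was not tested. Its reads in DMSO replicates 1, 2 and 3 were 5, 33 and 0. Of 11 T-lineage markers 10 were tested, 7 fell and 0 rose, while 20.6% of all tested genes were called lower and 15.9% higher. The summed level of the 11 was 942 to 1218 CPM in JQ1 libraries and 1577 to 1798 CPM in DMSO libraries. Of 10 myeloid markers 6, and of 7 erythroid and megakaryocyte markers 5, had no read in any library, and each of those lists summed to at most 0.471 CPM. The 9 B-lineage markers summed to 1.61 to 6.34 CPM in JQ1 libraries and 11.5 to 24.5 CPM in DMSO libraries, nearly all of it from CD79A and CD79B, while MS4A1, EBF1 and FCRL1 were at 0. The part of these marker shifts in the results on the adaptors was not tested. Of 4 genes used to check the response to BET inhibition, HEXIM1 rose to 89.3 ± 19.2 CPM in JQ1 libraries against 29.8 ± 7.17 CPM in DMSO libraries. SERPINI1 and BRD2 rose by log2 changes of 0.81 ± 0.27 and 0.57 ± 0.15, and MYC fell by 1.41 ± 0.10 (edgeR adjusted p = 0.037, 0.011 and 1.4e-05).

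Of the 10 adaptor genes 8 fell under JQ1, 0 rose, GRB2 did not pass the test, and SKAP1 had too few reads to be tested. Over all 13975 tested genes 20.6% were called lower and 15.9% higher (edgeR adjusted p under 0.05). The 8 falls ranged from a log2 change of -0.74 for VAV1 to -2.22 for SH2D2A, and the median over the 9 tested members was -1.42, against 0.00 over all tested genes. In each of the 8 genes all JQ1 libraries lay below all DMSO libraries, as they did for 26.0% of tested genes. SH2D2A reached the filter on low counts in only 2 of the 3 JQ1 libraries and so passed through the DMSO group, where it is higher. LAT shares exons with another gene, which limits what its count measures. In RNA from a whole culture, fewer cells with a transcript and less of it per cell cannot be told apart.

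**Figure D1:**
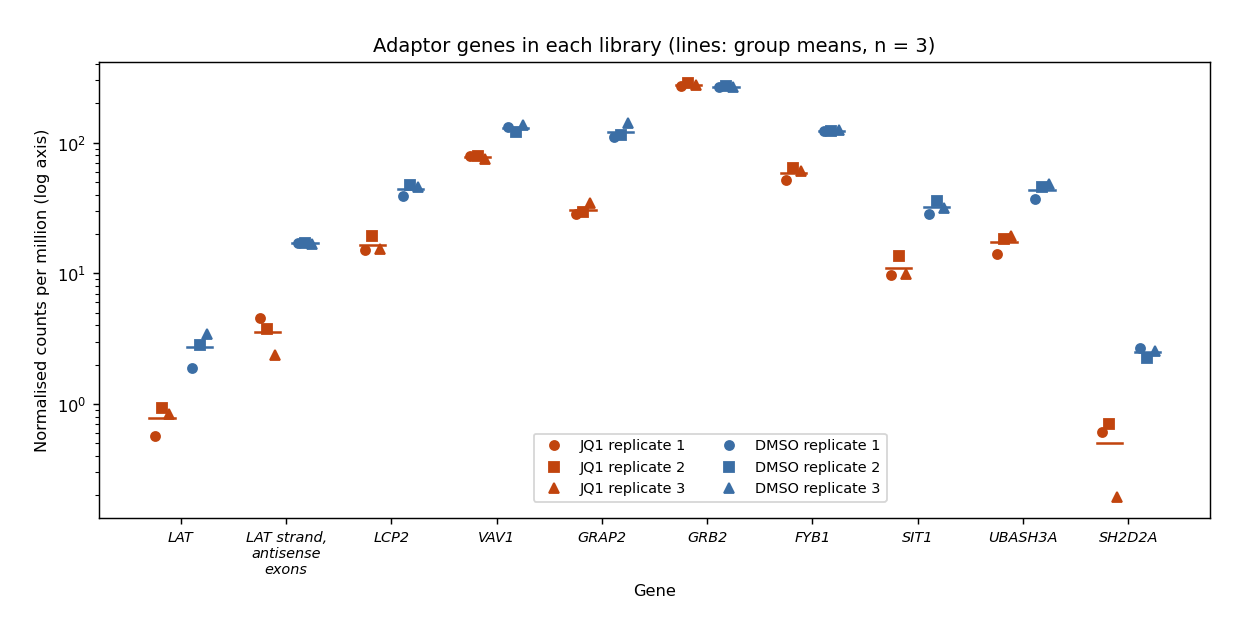
Normalised CPM on a log axis for each library, with JQ1 (orange) left of DMSO (blue) for each gene, symbols for replicates and lines for group means (n = 3); the second column shows reads on the strand of LAT over the exons of an antisense gene. SKAP1 is not plotted. In every plotted column but that of GRB2 the JQ1 points lie below all DMSO points, and GRB2 lies between 267 and 286 CPM in all 6 libraries.

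The genes differ in the sequence around their transcription start sites. RefSeq (GRCh38.p14) gave 10 promoters for 7 of the genes, each covering 250 bases before and 50 after a start site; LAT, GRAP2 and FYB1 have 2 each, those of LAT overlap by a short stretch, and SH2D2A, UBASH3A and SKAP1 are named only. The first promoter listed for 5 genes that fell is shown beside that of GRB2, the tested member that did not pass. The promoters of LAT, which also fell, are not shown. They differ in their content of CG dinucleotides, which are in capitals. The display was chosen with the changes known, and whether CG content goes with the change under JQ1 was not tested. The sequences run 5′ to 3′ on the strand of the gene.
LCP2, chr5:170297728-170298027, minus strand: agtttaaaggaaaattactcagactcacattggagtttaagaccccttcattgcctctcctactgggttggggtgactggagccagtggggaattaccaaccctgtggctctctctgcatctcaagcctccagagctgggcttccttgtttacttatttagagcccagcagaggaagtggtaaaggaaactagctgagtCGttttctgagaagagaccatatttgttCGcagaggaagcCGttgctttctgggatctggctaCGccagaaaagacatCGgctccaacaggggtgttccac
SIT1, chr9:35650882-35651181, minus strand: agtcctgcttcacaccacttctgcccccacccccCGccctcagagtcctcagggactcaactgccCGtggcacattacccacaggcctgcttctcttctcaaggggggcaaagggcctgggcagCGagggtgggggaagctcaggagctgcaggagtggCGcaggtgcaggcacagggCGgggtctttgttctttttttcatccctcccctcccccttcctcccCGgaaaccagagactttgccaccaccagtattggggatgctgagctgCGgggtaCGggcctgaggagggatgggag
GRAP2, chr22:39926354-39926653, plus strand: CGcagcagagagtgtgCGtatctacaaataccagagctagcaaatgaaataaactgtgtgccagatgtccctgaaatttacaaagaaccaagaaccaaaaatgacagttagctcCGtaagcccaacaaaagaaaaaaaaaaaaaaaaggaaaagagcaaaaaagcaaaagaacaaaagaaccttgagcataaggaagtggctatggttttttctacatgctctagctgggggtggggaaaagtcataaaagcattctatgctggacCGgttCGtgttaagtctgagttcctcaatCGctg
FYB1, chr5:39270600-39270899, minus strand: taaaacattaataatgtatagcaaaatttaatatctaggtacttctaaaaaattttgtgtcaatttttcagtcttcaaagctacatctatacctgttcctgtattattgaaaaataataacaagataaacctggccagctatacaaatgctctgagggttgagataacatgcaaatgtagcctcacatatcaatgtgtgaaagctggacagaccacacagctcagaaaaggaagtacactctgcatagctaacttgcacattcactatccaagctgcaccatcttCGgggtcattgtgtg
VAV1, chr19:6772458-6772757, plus strand: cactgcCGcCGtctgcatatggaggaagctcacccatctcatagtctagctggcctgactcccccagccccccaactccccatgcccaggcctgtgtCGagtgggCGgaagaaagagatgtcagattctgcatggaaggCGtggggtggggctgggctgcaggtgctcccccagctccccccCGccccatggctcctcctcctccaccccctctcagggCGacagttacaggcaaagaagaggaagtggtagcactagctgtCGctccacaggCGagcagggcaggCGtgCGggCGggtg
GRB2, chr17:75405629-75405928, minus strand: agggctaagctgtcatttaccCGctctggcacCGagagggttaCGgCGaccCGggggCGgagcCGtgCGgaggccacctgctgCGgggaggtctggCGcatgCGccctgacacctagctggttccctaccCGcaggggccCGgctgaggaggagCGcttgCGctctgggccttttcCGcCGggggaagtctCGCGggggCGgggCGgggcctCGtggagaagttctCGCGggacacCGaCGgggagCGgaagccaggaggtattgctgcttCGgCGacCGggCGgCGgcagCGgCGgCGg
The GRB2 promoter held 35 CpG dinucleotides, and its ratio of observed to expected CpG was 0.922, higher than in 83.3% of the 35116 promoters of the table. The 9 promoters of the other 6 genes held 1 to 18 CpG dinucleotides, with ratios of 0.104 to 0.498, against a median of 0.579 over the table. FYB1 had the fewest, with 1. The second promoter of LAT, not shown, had the most, with 18 and a ratio of 0.460. Its GC content of 72.3% was the same as that of GRB2.

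The pentamer GGAAG, the core of ETS factor motifs, was found on either strand in 9 of the 10 promoters, and 71.9% of all promoters hold it. The RUNX hexamer TGTGGT was found in 2 of them, the second promoter of LAT and the first of FYB1, against 13.1% of all. The E-box CAGCTG was found in 2, the second promoters of LAT and GRAP2, against 17.9%, and AGATAA, bound by factors of the GATA family, in 1, the first of FYB1, against 10.3%. The MYC-type E-box CACGTG, held by 7.26% of all promoters, and TATAAA, held by 11.5%, were found in 0 of the 10. A match describes letters in this window, not a binding site.

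LAT is the transmembrane scaffold on which the complex forms. Its counts on the sense strand were 14, 20 and 13 reads in JQ1 replicates 1, 2 and 3, and 38, 72 and 91 reads in DMSO replicates 1, 2 and 3. All JQ1 libraries were below all DMSO libraries, and LAT fell by 1.82 ± 0.32 on the log2 scale (0.781 ± 0.193 CPM in JQ1 and 2.72 ± 0.794 CPM in DMSO, edgeR adjusted p = 0.0016). In GENCODE release 29 on GRCh38, LAT (ENSG00000213658, chromosome 16, 28984826 to 28990783, plus strand) overlaps the gene AC109460.3 (28974804 to 28990775) on the same strand, and 47.7% of the bases in the union of its exons are shared. The files hold an earlier version of both genes, so the overlap in the annotation behind the counts may differ. In release 29 the exons of AC109460.3 cover 97.9% to 100% of the bases of each of the 9 protein-coding LAT transcripts. In gene counts of this layout a read that fits the exons of 2 genes on its strand is assigned to neither. AC109460.3 itself had only 9, 5 and 10 reads in JQ1 libraries and 12, 14 and 11 reads in DMSO libraries. The longest LAT transcript, annotated as retaining an intron, has only 19.7% of its bases in AC109460.3. Reads counted for LAT may therefore come mostly from bases outside its protein-coding transcripts, and the change of LAT as counted may not be theirs.

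The files hold another trace of the locus. An antisense gene, AC109460.4 (ENSG00000261552.1, 28989140 to 28990778, minus strand), has 454 exonic bases, all of which are also LAT exon and 80.4% of which are also exon of AC109460.3. It had 0 reads on its own strand in every library. In the column for the other strand, which is the strand of LAT, the same 454 bases had 113, 80 and 37 reads in JQ1 replicates 1, 2 and 3, and 347, 437 and 442 reads in DMSO replicates 1, 2 and 3. Scaled to the sense-strand library sizes this was 4.57, 3.75 and 2.38 CPM in JQ1 libraries and 17.1, 17.2 and 16.7 CPM in DMSO libraries, with the DMSO libraries close together and the JQ1 libraries all far below them. The log2 change was -2.22 ± 0.18, a 4.66-fold fall (edgeR over 6975 genes of that column, adjusted p = 1.8e-07, with 8.66% of them called lower), and it stayed between -2.44 and -2.03 with each library left out in turn. This measure was chosen after the counts had been seen. Reads of LAT and of the longer AC109460.3 cannot be told apart in these 454 bases.

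LCP2 and GRAP2 encode SLP-76 and the protein that tethers it to LAT. LCP2 (ENSG00000043462.11, chromosome 5, 170246237 to 170298227) had 14.99, 19.3 and 15.3 CPM in JQ1 replicates 1, 2 and 3, and 38.8, 47.6 and 45.9 CPM in DMSO replicates 1, 2 and 3. The highest JQ1 library was below the lowest DMSO library, and LCP2 fell by 1.42 ± 0.13 on the log2 scale, to 37.5% of its DMSO level (edgeR adjusted p = 4.2e-05). GRAP2 (ENSG00000100351.16, chromosome 22, 39901082 to 39973721) had 28.3, 29.2 and 34.7 CPM in JQ1 libraries, against 110, 115 and 141 CPM in DMSO libraries. It fell by 1.99 ± 0.12, which is 3.97-fold (edgeR adjusted p = 6.4e-06), and only 2.33% of tested genes had a lower log2 change. Replicate 3 was the highest library of GRAP2 in both groups. The ratio of JQ1 to DMSO within each replicate number was therefore narrow, at -1.96, -1.98 and -2.02 on the log2 scale for numbers 1, 2 and 3.

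VAV1 and GRB2 are further partners in the complex. VAV1 is a signalling protein found mainly in blood cells, and GRB2 is a broadly used adaptor that carries the RAS activator SOS. VAV1 (ENSG00000141968.7, chromosome 19, 6772714 to 6857366) had 78.7, 79.0 and 74.96 CPM in JQ1 libraries and 131, 122 and 136 CPM in DMSO libraries. It had the smallest of the 8 falls, with a log2 change of -0.74 ± 0.08, or 60.0% of the DMSO level (edgeR adjusted p = 0.00012). GRB2 (ENSG00000177885.13 in the files) had 272, 286 and 278 CPM in JQ1 libraries and 267, 270 and 267 CPM in DMSO libraries. The JQ1 libraries all lay just above the DMSO libraries, as in 22.9% of tested genes, but the log2 change of 0.06 ± 0.09 did not pass the test (edgeR adjusted p = 0.64). Its sign turned to -0.0063 with library size as the only scaling.

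FYB1 and SKAP1 encode ADAP and SKAP55, partners in the branch that activates integrins. FYB1 (ENSG00000082074.15 in the files, FYB in older annotations) had 52.3, 64.0 and 61.1 CPM in JQ1 libraries and 122, 122 and 126 CPM in DMSO libraries. It fell by 1.06 ± 0.09 on the log2 scale, to 47.9% of the DMSO level (edgeR adjusted p = 3.6e-05), with no overlap between groups. SKAP1 (ENSG00000141293.15, chromosome 17, 48133440 to 48430275) had 0 reads in each JQ1 library, and 1, 0 and 0 reads in DMSO replicates 1, 2 and 3. A count of 0 allows up to 3 reads, or 0.119 to 0.188 CPM over the 6 libraries, by counting error alone, so no change could be measured. Its paralogue SKAP2 was present at 24.9 ± 3.10 CPM in JQ1 and 27.6 ± 2.18 CPM in DMSO (log2 change -0.15 ± 0.12, edgeR adjusted p = 0.36).

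SIT1, UBASH3A and SH2D2A encode modulators of the signal. SIT1 codes for a transmembrane adaptor that dampens TCR signalling. It (ENSG00000137078.8, chromosome 9, 35649295 to 35650950) had 9.66, 13.5 and 9.86 CPM in JQ1 libraries and 28.4, 35.7 and 31.8 CPM in DMSO libraries. SIT1 fell by 1.54 ± 0.15, which is 2.91-fold (edgeR adjusted p = 6.1e-05), with every JQ1 library below every DMSO library. UBASH3A (ENSG00000160185.14, chromosome 21, 42403447 to 42447681), a negative regulator of the TCR response, had 14.1, 18.3 and 19.5 CPM in JQ1 libraries and 37.0, 45.6 and 48.0 CPM in DMSO libraries. It fell by 1.34 ± 0.14, to 39.5% of the DMSO level (edgeR adjusted p = 9.6e-05). SH2D2A codes for TSAd, an adaptor that binds LCK. The gene (ENSG00000027869.11, chromosome 1, 156806243 to 156816862) was rare, with 15, 15 and 3 reads in JQ1 replicates 1, 2 and 3, and 54, 57 and 67 reads in DMSO replicates 1, 2 and 3. SH2D2A fell by 2.22 ± 0.35 (edgeR adjusted p = 0.0008), and its size rests on JQ1 replicate 3 in part, since the change was -1.91 without that library.

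**Figure D2:**
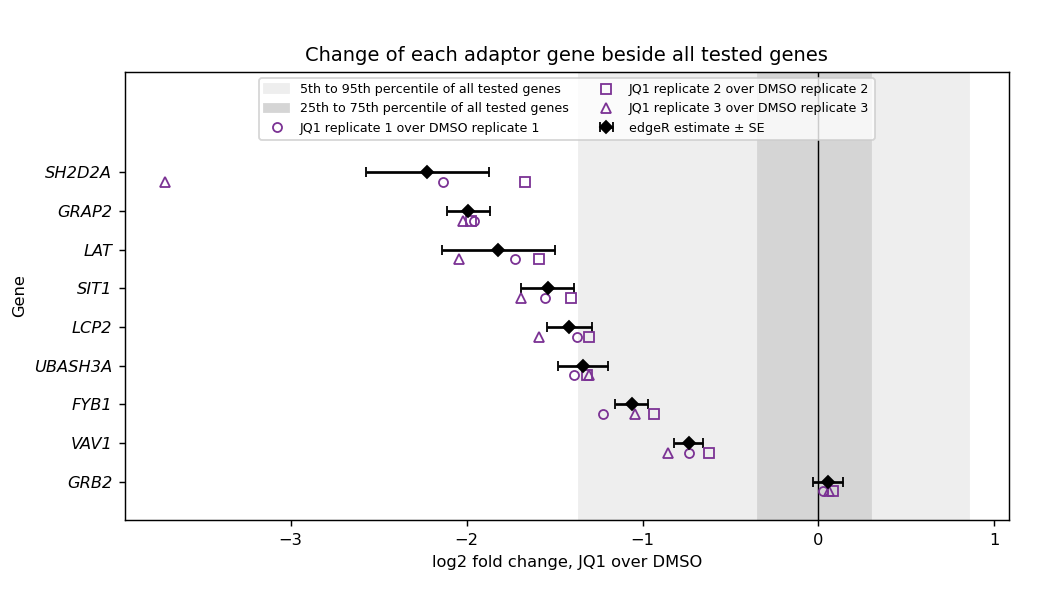
The log2 fold change of JQ1 over DMSO for the 9 tested adaptor genes (diamonds, edgeR estimate ± SE) with the log2 ratio of CPM within each replicate number (open symbols), over bands for the 25th to 75th and 5th to 95th percentiles of all tested genes. SH2D2A, GRAP2, LAT, SIT1 and LCP2 lie below the 5th percentile of -1.36, UBASH3A lies just above it at -1.34, and GRB2 lies in the central band.

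GRB2, which did not pass the test, served as a common denominator within each library. The log2 ratio of GRAP2 to GRB2 averaged -3.19 ± 0.16 in JQ1 libraries and -1.15 ± 0.19 in DMSO libraries, a difference of -2.04. The difference was -1.48 for LCP2, -1.61 for SIT1, -1.39 for UBASH3A, -1.12 for FYB1 and -0.79 for VAV1. It was -1.84 for LAT on its sense-strand reads and -2.56 for SH2D2A. For each of these 8 ratios the groups did not overlap. The 2-sided exact permutation test gave p = 0.1 (also 0.1 adjusted over the 8 ratios), the smallest that 3 against 3 libraries allow. This outcome was set beforehand, because the 8 genes already had no overlap in CPM and GRB2 was nearly level. The ratios to GRB2 therefore restate the falls and add no support to them. Set against VAV1 in place of GRB2, GRAP2 differed by -1.25, SIT1 by -0.81, LCP2 by -0.68, UBASH3A by -0.60 and FYB1 by -0.33. These signs also follow from the changes already given, since VAV1 fell least of the 8 genes.

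Levels can be ordered across genes only per length, here in TPM, which are counts per base of the longest annotated transcript scaled to the same total in every library. In JQ1 libraries GRB2 was the most abundant at 163 ± 2.32 TPM, followed by VAV1 at 60.0 ± 3.05, FYB1 at 26.9 ± 1.82, SIT1 at 18.2 ± 2.98, GRAP2 at 17.2 ± 1.82, UBASH3A at 13.7 ± 1.86 and LCP2 at 7.69 ± 0.889 TPM. In DMSO libraries GRB2 stood at 169.6 ± 7.29 TPM, VAV1 at 108 ± 10.7, GRAP2 at 74.2 ± 13.6, FYB1 at 60.8 ± 3.99, SIT1 at 57.3 ± 6.48, UBASH3A at 37.4 ± 6.17 and LCP2 at 22.3 ± 2.75 TPM. The ranges of SIT1 and GRAP2 overlapped in JQ1 libraries, as did those of GRAP2 with FYB1 and FYB1 with SIT1 in DMSO libraries. SH2D2A was at 0.654 ± 0.351 TPM in JQ1 and 3.50 ± 0.390 TPM in DMSO, and LAT is left out of the order because reads in its shared exons may not be assigned to it. Among the members other than LAT, GRAP2 was thus the fifth in JQ1 libraries and the third in DMSO libraries. Its place relative to SIT1 in DMSO libraries depends on the length used. Where LAT would stand in either group was not determined, so these places could shift.

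Summed over the 10 genes, LAT as counted, adaptor transcripts came to 307, 311 and 306 TPM in JQ1 replicates 1, 2 and 3, and 502, 518 and 588 TPM in DMSO replicates 1, 2 and 3. GRB2 made up 53.0% ± 0.943 of the sum in JQ1 libraries and 31.7% ± 1.36 in DMSO libraries (SD, n = 3 each). GRAP2 made up 5.6% ± 0.636 of it in JQ1 libraries and 13.8% ± 1.31 in DMSO libraries. The share of VAV1 was 19.5% ± 0.994 in JQ1 and 20.2% ± 1.18 in DMSO, with overlapping ranges. LAT was counted with 47 reads over the JQ1 libraries and 201 over the DMSO libraries. On its strand the 454 bases of the antisense gene held 230 and 1226 reads, which LAT and AC109460.3 share. Transcripts of LAT may therefore be largely missing from the sums, and every share would move if they were added. These shares are a description and were not tested.

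**Figure D3:**
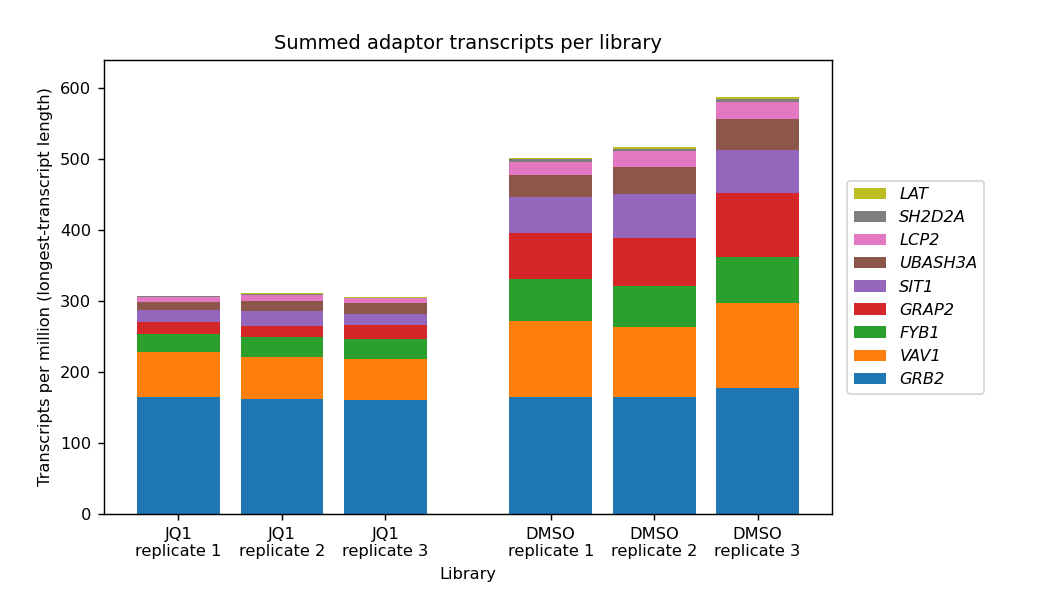
Levels in TPM of the adaptor genes stacked for each library, JQ1 replicates at left and DMSO replicates at right. LAT is as counted, and SKAP1 is too low to show. The blue GRB2 segment is 162 to 166 TPM in JQ1 libraries and 165 to 178 TPM in DMSO libraries, while the segments above it sum to 142 to 149 TPM in JQ1 and 337 to 410 TPM in DMSO.

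Relatives of the adaptors were read beside them. GRAP, a further relative of GRB2 and GRAP2, fell by 0.82 ± 0.16 on the log2 scale (edgeR adjusted p = 0.0026). The log2 ratio of GRAP2 to GRAP was 1.19 ± 0.40 in JQ1 libraries and 2.33 ± 0.18 in DMSO libraries, without overlap (exact permutation p = 0.1, and 0.3 adjusted over 3 ratios). UBASH3B, the relative of UBASH3A, fell by 1.61 ± 0.15 (105 ± 21.8 CPM in JQ1 and 320.0 ± 41.0 CPM in DMSO, edgeR adjusted p = 6.2e-05). The ratio of UBASH3A to UBASH3B had overlapping groups (difference 0.28, exact permutation p = 0.2, and 0.3 adjusted). VAV3 fell by 0.50 ± 0.14 (edgeR adjusted p = 0.019), the ratio of VAV1 to VAV3 overlapped between groups (difference -0.23, exact permutation p = 0.5, also 0.5 adjusted), and VAV2 and FYB2 had no read in any library.

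Among 30 other adaptors of lymphocyte signalling, 26 were tested, 16 fell and 0 rose, with a median log2 change of -0.57; of all tested genes 20.6% were called lower and 15.9% higher. With the replicate number as a block 17 of the 26 fell and 3 rose, against 4133 lower and 3813 higher of all 13975 tested genes. SLA, which codes for an adaptor that promotes turnover of the TCR, fell to 11.3 ± 2.42 CPM in JQ1 libraries against 60.0 ± 5.64 CPM in DMSO libraries (log2 change -2.40 ± 0.15, edgeR adjusted p = 6.4e-06). LAX1, a transmembrane adaptor, fell by 1.63 ± 0.14 (edgeR adjusted p = 2.7e-05). Of 20 genes for the receptor, its kinases, phosphatases and coreceptors, 18 fell and 1 rose, with a median of -1.57, against the same shares of all tested genes. The phosphatases PTPN22 and PTPN6, which act on the proximal kinases, fell by 2.01 ± 0.13 and fell by 2.003 ± 0.14, while the kinase FYN rose by 0.60 ± 0.10 (edgeR adjusted p = 7.7e-06, 1e-05 and 0.0012).

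Genes that act after the LAT and SLP-76 complex were mixed. Of 27 tested, 10 fell and 5 rose, with a median log2 change of -0.19, and the block called 15 lower and 8 higher. Of all 13975 tested genes 20.6% were called lower and 15.9% higher, and the block called 4133 lower and 3813 higher. The share that rose was thus near that of all tested genes. MAP4K1, a kinase that binds SLP-76, fell by 1.404 ± 0.13 (edgeR adjusted p = 3.7e-05). WIPF1, a partner of the Wiskott-Aldrich syndrome protein, fell by 0.83 ± 0.08 (edgeR adjusted p = 6.4e-05). ITPR1, a receptor that releases calcium, rose to 82.2 ± 10.1 CPM in JQ1 libraries against 43.1 ± 4.61 CPM in DMSO libraries, and the calcineurin subunit gene PPP3CA rose by 0.40 ± 0.09 (edgeR adjusted p = 0.0002 and 0.0057). In the integrin branch, 16 of 17 listed genes were tested, 6 fell and 4 rose, with a median of -0.22. The block called 9 lower and 6 higher, against the same shares of all tested genes. FERMT3, which codes for the integrin activator kindlin-3, fell by 1.499 ± 0.09 (edgeR adjusted p = 6.4e-06). RASSF5, an effector of RAP1, fell by 1.11 ± 0.09 (edgeR adjusted p = 2.2e-05). RAP1B and CRK rose by 0.50 ± 0.08 and 0.55 ± 0.12 (edgeR adjusted p = 0.0014 and 0.0044).

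**Figure D4:**
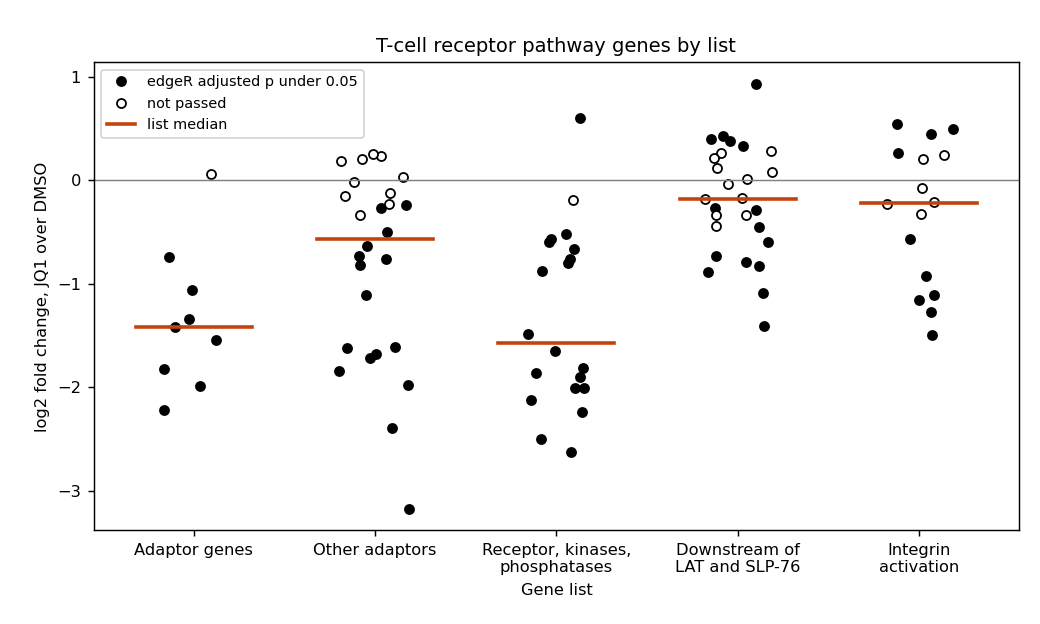
The log2 fold change of JQ1 over DMSO for each tested gene of 5 lists, filled where the edgeR adjusted p was under 0.05, with a line at the list median. All but 1 of the filled points of the adaptor, other adaptor and receptor lists lie below 0, the exception being FYN, while the lists downstream of LAT and SLP-76 and of integrin activation have filled points on both sides of 0.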

How the data were processed

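The authors deposited raw counts of reads per gene for each library, not normalised, with 3 columns for the unstranded, sense and antisense readings. Libraries came from a stranded total RNA kit, per the labels' protocols, and the submitters' processing notes name GRCh38. The sources used here do not give the aligner or the annotation release; the layout is that of STAR gene counts, which omit multimapping and ambiguous reads. Sense counts were taken from the reverse-strand column, which held 20.9 to 22.6 times the counts of the other. The 4 read classes at the head of each file were kept out of library sizes. They made up 1.48% to 1.99% (unmapped), 14.1% to 15.7% (several places), 18.8% to 26.1% (outside genes) and 3.38% to 3.88% (ambiguous) of reads.

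Names came from a symbol table and GENCODE release 29, which matched 57447 of 58096 identifiers without their version and 53747 with it; the versions of LAT, FYB1, GRB2 and AC109460.3 in the files differ from that release. Genes were kept with filterByExpr (minimum count 10, minimum total 15), scaled by TMM and tested by the quasi-likelihood test of edgeR 4.0.16 under R 4.3.3, with robust dispersions and group as the single term. P-values were adjusted after Benjamini and Hochberg across 13975 genes, and calls needed 0.05. Each SE is |log2 change| / sqrt(F). The procedure was tested on simulated data. Chi-square comparisons of counts found no library deposited more than once. Alternatives used DESeq2 1.42.0, limma 3.58.1 (voom), other scaling, filters and strand settings, the replicate number as a block, and each library left out.

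Deviations from group means correlated at 0.33, 0.43 and 0.37 between libraries of the same replicate number 1, 2 and 3, so the numbers pair the libraries. This comes from the data, not the labels. The main fit and the exact permutation tests treated the libraries as unpaired, and only the fit with the replicate block used the pairing. The members and lists were chosen with earlier results of these data known. All 10 members are named, the 4 genes that check the response, relatives of the members, and of each pathway list the 2 called genes per direction with the smallest p. Floors and counting limits cover counting error only. Promoters are from RefSeq.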

Additional observations from a re-analysis of the deposited data

How the results depend on the processing

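The falls of LAT, LCP2, SIT1, GRAP2, SH2D2A, UBASH3A, FYB1 and VAV1 kept their direction and passed the test under each of the 14 alternatives set out for them. One of these kept genes with at least 1 CPM in at least 3 libraries. There LAT and SH2D2A, under 1 CPM in every JQ1 library, stayed in only through the DMSO group, where they are higher. With each library left out in turn the log2 changes ran from -2.08 to -1.87 for GRAP2, -2.50 to -1.91 for SH2D2A and -0.78 to -0.70 for VAV1. GRB2 passed under none of them (edgeR or other adjusted p from 0.46 to 0.96) and had -0.0063 with library size only, which lowered the median of all genes by 0.06. The replicate block, with the number as a term, changed no call among the members. It called 3813 genes higher over all genes, 3 among other adaptors and 8 downstream of LAT and SLP-76. In the integrin list the block called 9 lower and 6 higher, and over all genes it called 4133 lower. With each library left out, genes called higher numbered 0 to 1 among other adaptors and 3 to 5 downstream of LAT and SLP-76. The lowest count downstream, 3, came without JQ1 replicate 3 or DMSO replicate 1. Over all tested genes 1707 to 1901 were called higher in these fits, and 2436 to 2627 lower. Genes called lower numbered 11 to 16 among other adaptors, where the main fit had 16 and unstranded counts gave 13. They numbered 18 to 19 in the receptor list, 8 to 10 downstream of LAT and SLP-76 and 5 to 6 in the integrin list. With the union of exons as length, levels in JQ1 were 154 TPM for GRB2, 47.0 for VAV1, 21.5 for SIT1 and 17.4 for FYB1. They were 12.9 for GRAP2, 11.5 for UBASH3A, 5.93 for LCP2 and 0.456 for LAT. In DMSO they were 86.3 for VAV1, 69.0 for SIT1, 56.6 for GRAP2 and 40.0 for FYB1. LCP2 had 17.5, SH2D2A 2.83 and LAT 1.77 there. SIT1 then ranked above GRAP2 in DMSO, as it already did in JQ1, and above FYB1 in both groups. Differences in ratio to GRB2 kept their sign against VAV1. This was set beforehand, because VAV1 fell least among the genes that fell, so it is no check on the result. Low counts limit LAT, SH2D2A and SKAP1, and for LAT reads in exons shared with AC109460.3 may not be assigned to it.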

Other observations

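LAT and SIT1 belong to a class of adaptors that span the membrane, and 4 further genes of that class were among the other adaptors listed; they are grouped here after their values were seen. TRAT1 had 18.6, 16.6 and 12.1 CPM in JQ1 replicates 1, 2 and 3, and 62.6, 50.7 and 39.5 CPM in DMSO replicates 1, 2 and 3. The groups did not overlap, and TRAT1 fell by 1.68 ± 0.20 on the log2 scale (edgeR adjusted p = 0.00026). LIME1 fell by 0.64 ± 0.19, with 3.37 ± 0.188 CPM in JQ1 and 5.21 ± 0.841 CPM in DMSO (SD, n = 3 each, edgeR adjusted p = 0.024). LAX1 fell as given with its list. PAG1, a binding partner of the kinase CSK, had 1 read over the 3 JQ1 libraries and 1 read over the 3 DMSO libraries, so PAG1 was not tested.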
